A study of Mus musculus with 15 samples.

Results

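The genes described here are 8 genes of regulatory T cells and of the interleukin-2 (IL-2) axis: Foxp3, Il2, Il2ra, Il2rb, Ctla4, Ikzf2, Tnfrsf18 and Tnfrsf4. They were chosen by name from the 48709 genes of the deposited count table and were read in every sample, both as levels and relative to Cd3e, a subunit of the CD3 complex that T cells carry. Of the 8, 7 were among the 16554 genes with enough counts for a test, and Il2 was not.

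The samples were islets of female NOD mice, a strain in which leukocytes infiltrate the islets and autoimmune diabetes follows without any treatment. Islets were taken at 4, 6, 8, 10 and 12 weeks of age from 3 different mice per age, 15 mice in all, with no allele, agent or control strain added, so that age is what separates the groups. The islets were released with collagenase and picked by hand, and bulk RNA with a poly(A) tail was sequenced, so a sample holds endocrine cells together with the leukocytes and vessels that stayed with them. In such bulk RNA, fewer cells of a type and less RNA per cell cannot be told apart. Counts summed to between 25407492 and 41616275 per mouse, and 3 counts, taken as the floor, equalled 0.0754 to 0.128 CPM (counts put on one scale across libraries with TMM factors).

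Regulatory T cells restrain other T cells, and the transcription factor FOXP3 defines them. They make little IL-2 themselves and take it up from activated conventional T cells through a receptor of 3 chains, encoded by Il2ra (CD25), Il2rb (CD122) and Il2rg, which signals through JAK1, JAK3 and STAT5. CTLA-4, GITR (Tnfrsf18) and OX40 (Tnfrsf4) are surface receptors abundant on these cells, Helios (Ikzf2) is a transcription factor of many of them, and all of these genes except Foxp3 are also used by other cells.

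The start-site regions of 3 members are printed, those of the defining factor, of the ligand and of a receptor. NFAT, which acts after T cell receptor signals, and STAT5, which acts after IL-2, are known regulators of genes of this kind. A window of 250 bases before and 50 after a RefSeq transcription start (assembly GRCm38.p6) was found for 6 of the 8 members, and not for Il2rb and Ikzf2. Capitals mark matches on either strand to 4 motifs. The core of an NFAT site was searched as TGGAAA. A STAT site was searched as TTCNNNGAA. An AP-1 site was searched as TGANTCA, and a TATA box as TATAAA.
Foxp3, second start site, chrX:7580233-7580532, plus strand: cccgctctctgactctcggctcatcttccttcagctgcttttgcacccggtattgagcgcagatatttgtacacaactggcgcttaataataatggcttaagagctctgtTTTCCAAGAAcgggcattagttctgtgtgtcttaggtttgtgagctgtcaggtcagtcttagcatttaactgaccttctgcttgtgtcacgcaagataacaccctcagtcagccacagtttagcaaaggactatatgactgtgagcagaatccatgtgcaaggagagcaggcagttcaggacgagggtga
Tnfrsf18, chr4:156026072-156026371, plus strand: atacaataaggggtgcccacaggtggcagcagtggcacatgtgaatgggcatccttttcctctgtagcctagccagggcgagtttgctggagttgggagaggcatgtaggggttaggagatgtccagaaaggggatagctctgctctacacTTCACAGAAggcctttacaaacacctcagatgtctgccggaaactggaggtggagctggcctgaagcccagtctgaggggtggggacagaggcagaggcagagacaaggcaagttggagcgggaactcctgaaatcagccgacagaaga
Il2, chr3:37125905-37126204, minus strand: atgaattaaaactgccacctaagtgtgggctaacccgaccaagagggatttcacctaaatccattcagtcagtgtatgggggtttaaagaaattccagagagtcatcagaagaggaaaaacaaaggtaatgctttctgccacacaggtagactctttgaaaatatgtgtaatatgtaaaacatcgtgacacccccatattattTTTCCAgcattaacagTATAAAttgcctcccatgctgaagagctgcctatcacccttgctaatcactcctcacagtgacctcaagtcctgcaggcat
In the Foxp3 window the capitals join TTTCCA, the reverse complement of the NFAT core, at position -140 and the STAT match TTCCAAGAA at position -139, which overlap, and in the Tnfrsf18 window they mark the STAT match TTCACAGAA at position -99, counted from the start site. In the Il2 window they mark TTTCCA at position -47 and TATAAA at position -31. Of 32851 such windows, 21.4% held the NFAT core, 8.3% the STAT site, 7.81% the AP-1 site and 13.6% the TATA box. Foxp3 has another window in the table, at its first start site (chrX:7579426-7579725), which held TATAAA at position -32 and none of the other 3 motifs. The Ctla4 window held the NFAT core at position -144 and TATAAA at position 41, the Tnfrsf4 window held the NFAT core at position -220, and the Il2ra window held none of the 4 motifs. The printed Foxp3 window was chosen with these matches known. Of the windows of the other members, only that of Tnfrsf18 held a STAT match. A match is a description of the letters, and binding was not measured.

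A pair of mice stood apart from the others of their age. Mouse 1 at 4 weeks had 110 Cd3e counts, against 9 and 2 in the other 4-week mice, and mouse 1 at 8 weeks had 20, against 406 and 556. Mouse 1 at 8 weeks was the lowest of its age for all 7 members tested, and mouse 1 at 4 weeks the highest of its age for all but Ikzf2, and where leaving one of them out moved a called fold change by over 1.5 times or changed a call, the value without it is given. A list of 15 T cell genes, Cd3e among them, was written from general knowledge with earlier results of these data known. These genes summed to 3.84 to 56.4 CPM at 4 weeks, 14.8 to 294 CPM at 8 weeks and 560 to 762 CPM at 12 weeks. Of them, 3 were at 0 counts in mouse 3 at 4 weeks and 1 in mouse 1 at 6 weeks, and the list was complete in every other mouse. Endocrine genes, which mark the labelled tissue, summed to 310776 to 344268 CPM at 4 weeks and 151995 to 192745 CPM at 12 weeks.

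The ligand of the axis was almost absent from these libraries. Il2, the T cell growth factor itself, had 14 counts over all 15 mice, with 0 in each mouse at 4 and 6 weeks. At 8 weeks the counts were 0, 0 and 1, at 10 weeks 0, 1 and 2, and at 12 weeks 5, 0 and 5. Counts above the floor of 3 were thus found in a pair of 12-week mice, at 0.162 and 0.157 CPM, while the other 12-week mouse had none. In an edgeR fit without a filter on low counts, Il2 had an adjusted p of 0.0408 for 10 and 12 against 4 and 6 weeks, 0.0727 for 12 against 4 weeks and 0.144 for any difference among the ages, and no fold is given because the younger mice were at 0. At this depth a level of Il2 below about 3 counts could not be measured.

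Among the receptor chains, Il2ra, whose product gives the IL-2 receptor its high affinity, stood at 2.81, 0.941 and 0.615 CPM in the 4-week mice and at 0.396, 1.37 and 3.19 CPM in the 6-week mice. It stood at 1.09, 4.89 and 7.28 CPM at 8 weeks, at 12.9, 10.7 and 6.41 CPM at 10 weeks and at 8.72, 8.86 and 12.5 CPM at 12 weeks. The 6 oldest mice all lay above the 6 youngest, and the 8-week mice spanned both. Il2ra was 6.86-fold higher at 12 than at 4 weeks (log2 fold change 2.78, SE 0.750, adjusted p = 0.0079, edgeR quasi-likelihood test, n = 3 per age), and the log2 fold change was 3.69 without mouse 1 at 4 weeks (adjusted p = 0.0054).
Il2rb encodes the signalling chain that IL-15 also uses. It stood at 8.76, 2.18 and 0.145 CPM at 4 weeks, at 0, 1.47 and 6.27 CPM at 6 weeks and at 0.730, 25.3 and 26.6 CPM at 8 weeks. At 10 weeks it reached 59.0, 47.9 and 26.4 CPM and at 12 weeks 45.6, 31.8 and 55.8 CPM. No 10- or 12-week mouse overlapped a 4- or 6-week mouse. The log2 fold change of 12 against 4 weeks was 3.58 (SE 1.25, edgeR adjusted p = 0.0280), and 5.31 without mouse 1 at 4 weeks (adjusted p = 0.0162).

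Foxp3 followed the same course from a lower base. Its counts were 48, 8 and 0 at 4 weeks and 1, 7 and 64 at 6 weeks, which is 1.80, 0.342 and 0 CPM and 0.0396, 0.184 and 2.52 CPM. At 8 weeks it stood at 0.365, 5.67 and 8.32 CPM, at 10 weeks at 13.1, 10.9 and 5.88 CPM and at 12 weeks at 9.76, 8.29 and 12.9 CPM. In words, 1 mouse of 3 carried most of the Foxp3 signal at 4 and at 6 weeks, mouse 1 was low at 8 weeks with 10 counts, and every mouse of 10 and 12 weeks exceeded every mouse of 4 and 6 weeks. Foxp3 was 14.3-fold higher at 12 than at 4 weeks (log2 fold change 3.84, SE 1.26, edgeR adjusted p = 0.0210) and 12.7-fold higher at 10 and 12 than at 4 and 6 weeks (log2 fold change 3.66, SE 0.877, adjusted p = 0.0027). Without mouse 1 at 4 weeks the former log2 fold change was 5.97 (adjusted p = 0.0130). The Foxp3 gene (chrX:7579676-7595243 of GRCm38, plus strand) overlaps Ccdc22 and Gm36995 on the opposite strand and Ppp1r3fos on the same strand, and whether the counting used strand is not given in the sources used here. Over all mice Ccdc22 had 5216 counts, Gm36995 had 1289 and Ppp1r3fos had 336, against 2462 for Foxp3, and their part in the Foxp3 counts was not tested.

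Ikzf2 differed in its course from the other members in that its young mice were neither low nor spread. It stood at 9.06, 9.79 and 9.19 CPM at 4 weeks and at 9.39, 7.21 and 10.7 CPM at 6 weeks, from 229 to 274 counts a mouse, in mice whose Cd3e counts ran from 2 to 127. At 8 weeks it stood at 11.6, 22.2 and 22.5 CPM, at 10 weeks at 31.99, 22.6 and 18.1 CPM and at 12 weeks at 27.7, 26.5 and 36.5 CPM. The 8-week mice all lay above the 6-week mice for this 1 member of 7, as they did for 7.62% of all genes tested. Its increase of 3.24-fold from 4 to 12 weeks was the smallest of the 7 (log2 fold change 1.69) and had the smallest error (SE 0.263, edgeR adjusted p = 0.0004).

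The inhibitory receptor gene Ctla4, whose product competes with CD28 for CD80 and CD86, tracked Foxp3. Its level was 2.25, 0.257 and 0 CPM at 4 weeks, 0.0792, 0.342 and 1.89 CPM at 6 weeks and 0.182, 6.10 and 8.25 CPM at 8 weeks, then 13.8, 10.5 and 6.71 CPM at 10 weeks and 12.6, 8.02 and 15.9 CPM at 12 weeks. The mice that were high or low for Foxp3 within an age were those that were high or low for Ctla4. Il2rb, Cd3e and the sum of the T cell genes had the same order of mice at every age, so the order was not particular to this pair. The log2 fold change of Ctla4 at 12 against 4 weeks was 3.85 (SE 1.24, edgeR adjusted p = 0.0193), and 6.62 without mouse 1 at 4 weeks (adjusted p = 0.0072).
The costimulatory receptors of the TNF receptor family lie next to each other, Tnfrsf4 at chr4:156013843-156016612 and Tnfrsf18 at chr4:156026164-156028895 (GRCm38, both on the plus strand). Tnfrsf18 stood at 1.76, 0.812 and 0.977 CPM at 4 weeks and at 10.0, 9.66 and 14.4 CPM at 12 weeks, and Tnfrsf4 at 1.42, 0.470 and 0.253 CPM and at 9.43, 6.45 and 10.8 CPM. At 8 weeks both were lowest in mouse 1 (1.20 and 0.438 CPM). For these 2 of the 7 members all 10-week mice exceeded all 8-week mice, as they did for 17.2% of all genes tested. At 12 against 4 weeks the log2 fold change was 3.25 for Tnfrsf18 (SE 0.568, adjusted p = 0.0007) and 3.62 for Tnfrsf4 (SE 0.823, adjusted p = 0.0030), and without mouse 1 at 4 weeks that of Tnfrsf4 was 4.62 (adjusted p = 0.0034). Tnfrsf18 overlaps Gm16008 on the opposite strand, which had 275 counts over all mice against 2597 for Tnfrsf18, and its part in the Tnfrsf18 counts was not tested.

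**Figure D1:**
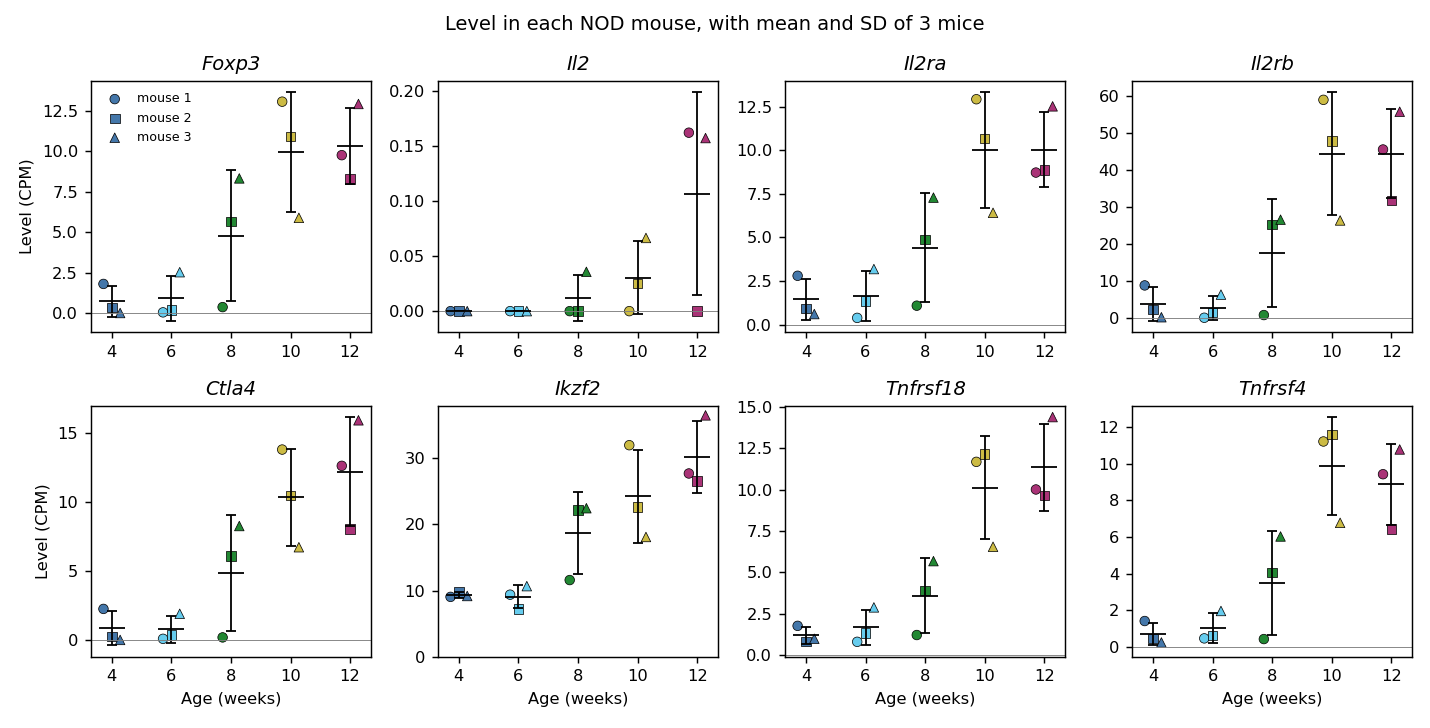
Level in CPM (y axis, linear, a separate scale per gene) of the 8 genes in each of 15 NOD mice by age in weeks (x axis). Points are mice, with the symbol giving the mouse number, the long bar is the mean and the whiskers are the SD of 3 mice. For 7 genes the 10- and 12-week mice lie above all 4- and 6-week mice, the 8-week mice are split, with mouse 1 low, and Il2 has at most 5 counts in any mouse.

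Levels of different genes can be set side by side only per length, which the deposited TPM values (scaled by the authors per transcript length and library) allow. At 12 weeks Il2rb had the highest level, 40.4 ± 13.1 TPM (SD, n = 3), and its lowest mouse, at 27.9 TPM, was above the highest mouse of any other member. Tnfrsf18 followed at 18.9 ± 5.69 TPM, Tnfrsf4 at 16.5 ± 4.88 TPM and Ctla4 at 13.3 ± 5.01 TPM, and the ranges of these 3 overlapped. Ikzf2 (6.60 ± 1.63 TPM), Foxp3 (6.57 ± 1.92 TPM) and Il2ra (4.89 ± 1.38 TPM) overlapped as well, and the top of the Foxp3 range, 8.74 TPM, reached above the bottom of the Ctla4 range, 8.42 TPM. Il2 was last, at 0.237 ± 0.206 TPM. For scale, Cd3e stood at 74.0 ± 18.4 TPM and Cd4, the co-receptor of helper and most regulatory T cells, at 54.4 ± 15.1 TPM at that age. At 4 weeks Il2rb was again first by its mean, at 2.62 ± 3.26 TPM, but Ikzf2 came next, at 1.55 ± 0.0319 TPM, ahead of Tnfrsf18 (1.51 ± 0.706 TPM), Tnfrsf4 (1.03 ± 0.930 TPM) and Ctla4 (0.712 ± 1.06 TPM). Il2ra (0.547 ± 0.465 TPM) and Foxp3 (0.354 ± 0.482 TPM) followed. Il2 was at 0 TPM in every 4-week mouse. Among the other members neighbours in this order overlapped in range, and only Il2ra and Foxp3 lay wholly below Ikzf2.

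Across the course, the 7 members tested were all called higher at 12 than at 4 weeks (edgeR adjusted p under 0.05), where 26.3% of all genes tested were called higher. For 10 and 12 against 4 and 6 weeks, 7 of 7 were again called higher, against 30.1% of all genes, with log2 fold changes from 1.56 for Ikzf2 to 3.85 for Il2rb and a largest adjusted p of 0.0027. In that comparison the log2 fold changes of Foxp3, Il2rb and Ctla4 were 4.73, 4.72 and 5.20 without mouse 1 at 4 weeks, and 5.06, 4.66 and 4.66 without mouse 3 at 6 weeks. In both comparisons no older mouse overlapped a younger one for any of the 7, which held for 30.3% and 19.7% of all genes with the older mice higher. The test of any difference among the 5 ages called 7 of 7, against 56% of all genes. These counts describe the members and do not support them as a group, since most passed the filter on low counts through the ages at which they were high. Without mouse 2 or mouse 3 at 4 weeks, or without mouse 3 at 12 weeks, 4 of 7 were called at 12 against 4 weeks, beside 22.7%, 21.5% and 22.4% of all genes called higher. Foxp3, Il2rb and Ctla4 then missed the threshold, with adjusted p from 0.0521 to 0.0901, and their lowest log2 fold changes, without mouse 3 at 4 weeks, were 3.25, 3.01 and 3.26.

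Between neighbouring ages the steps were less certain. None of the 7 was called at 6 against 4 weeks, where 0.00604% of all genes were called higher and none of the 7 had an unadjusted p under 0.05 (8.67% of all genes). From 6 to 8 weeks the fitted log2 difference ran from 1.05 for Ikzf2 to 2.79 for Il2rb, with 2.43 for Foxp3 (SE 1.20, edgeR adjusted p = 0.300). No member and 0% of all genes were called by edgeR in that interval, while Il2rb, Ctla4, Ikzf2 and Tnfrsf4 had an unadjusted p under 0.05, as 18% of all genes did, and these 4 also passed the threshold of the study (unadjusted p under 0.05 and 1.5-fold), as 8.4% of all genes did with the older mice higher. DESeq2 called 1 member, Ikzf2 (adjusted p = 0.0091), and 2.69% of all genes higher. Without mouse 1 at 8 weeks edgeR called Ikzf2 as well (log2 fold change 1.30, adjusted p = 0.0272), with 4.29% of all genes higher, and without that mouse and mouse 1 at 4 weeks it called 4: Il2rb at 3.36, Ctla4 at 3.26, Tnfrsf4 at 2.32 and Ikzf2 at 1.30, with 6.75% of all genes higher.
From 8 to 10 weeks no member was called, against 8.4% of all genes called higher. Tnfrsf18 came nearest (log2 fold change 1.496, SE 0.517, edgeR adjusted p = 0.0616), was the only member with an unadjusted p under 0.05 (37.9% of all genes) and was called by DESeq2 (adjusted p = 0.0176), as were 14.2% of all genes with the older mice higher. From 10 to 12 weeks the fitted log2 differences lay between -0.15 for Tnfrsf4 and 0.32 for Ikzf2, no member and 0% of all genes were called, and none of the 7 had an unadjusted p under 0.05 (7.52% of all genes). DESeq2 called no member there or at 6 against 4 weeks. The standard errors of that difference were 1.05 for Foxp3, 1.04 for Ctla4 and 1.09 for Il2rb in the fit over all ages, and 0.302, 0.320 and 0.311 with only the 10- and 12-week mice, where no member was called either.

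The ratio to Cd3e sets each gene against the T cell RNA of the same library, so that scaling between libraries does not enter. At 10 and 12 weeks the ratio of counts was tight: Foxp3 per Cd3e was 0.254, 0.243 and 0.295 at 10 weeks and 0.249, 0.230 and 0.255 at 12 weeks. At 8 weeks it was 0.5, 0.392 and 0.419, so every 8-week mouse lay above every older one. The same held for Il2ra (0.337 to 1.5 at 8 weeks, at most 0.321 later) and Ikzf2 (1.13 to 15.9, at most 0.907 later). The share of all genes whose ratios did not overlap in this way was not counted, so the lack of overlap cannot be read as a trait of these members. By another rule, an exact p under 0.05 in the test among 8, 10 and 12 weeks, 39.8% of all genes were lower at the later ages. The Foxp3 ratio of the younger mice scattered around its values at 8 to 12 weeks, with 0.436, 0.889 and 0 at 4 weeks and 0.5, 0.137 and 0.504 at 6 weeks, where 3 of the 6 mice had 9 or fewer Cd3e counts. The ratio thus rested on few reads there.

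**Figure D2:**
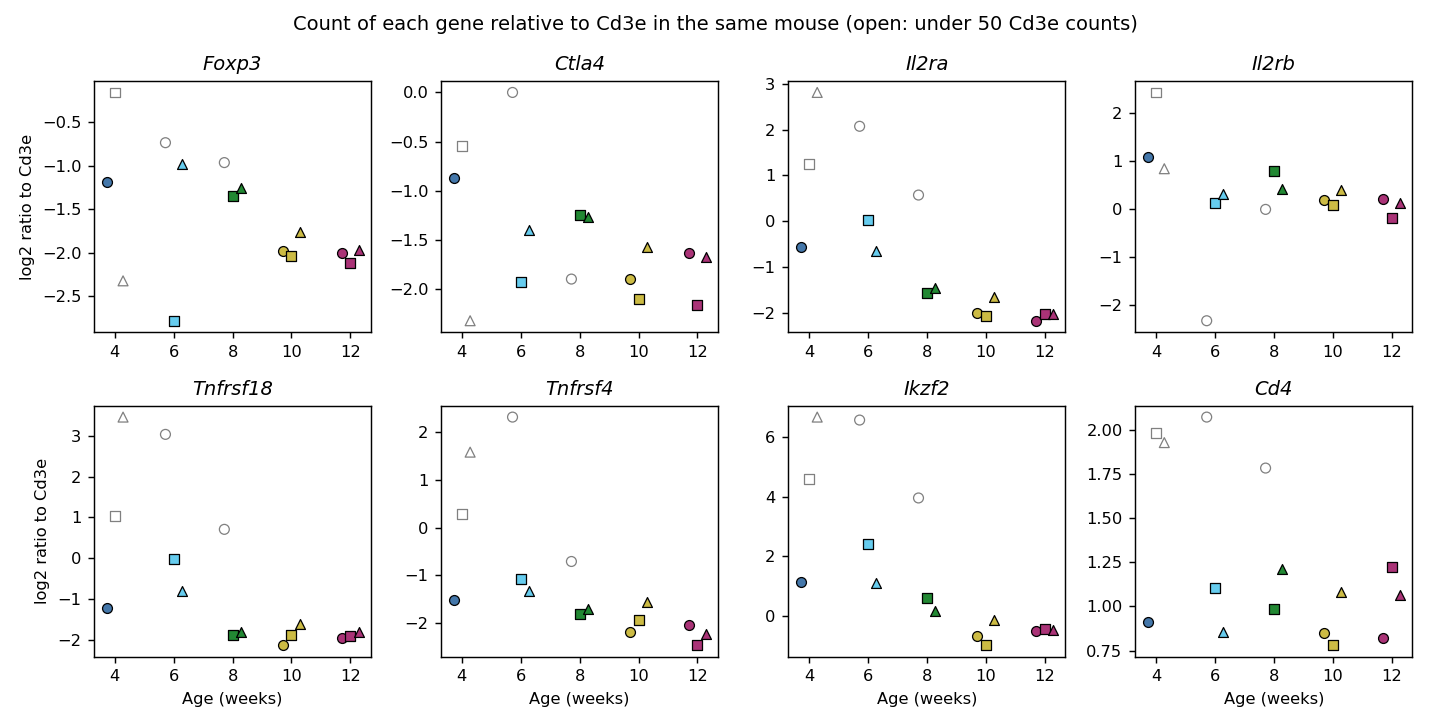
log2 ratio of the count of each gene to the Cd3e count of the same mouse, with 0.5 added to both (y axis), by age in weeks (x axis), for 7 members and Cd4. Filled points are mice with at least 50 Cd3e counts and open points are mice with fewer, and the symbols give the mouse number as circle (1), square (2) and triangle (3). Foxp3, Ctla4 and Il2rb scatter without a trend over the young mice, while Ikzf2, Il2ra, Tnfrsf18 and Tnfrsf4 start high and end low.

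For 10 and 12 against 4 and 6 weeks, the mean log2 ratio of Foxp3 was lower by 0.61 (log2 difference -0.61, exact permutation test, two-sided, 6 against 6 mice, p = 0.169), that of Ctla4 by 0.66 (difference -0.66, exact p = 0.108) and that of Il2rb by 0.27 (difference -0.27, exact p = 0.656), and none of these passed the threshold. Il2ra fell by 2.81, Ikzf2 by 4.28, Tnfrsf18 by 2.80 and Tnfrsf4 by 2.12, each with an exact p of 0.00216, the smallest that 6 against 6 mice allow (0.00233 after adjustment over all genes). So 4 of 7 members were lower relative to Cd3e at the older ages, but so were 96.3% of all genes, since a ratio to a gene that rises falls for genes that rise less. In a test added after the data were seen, over the 9 mice with at least 50 Cd3e counts, 3 young and 6 older, the same 4 were lower in every older mouse, by -0.77 for Tnfrsf4 to -2.08 for Ikzf2 (exact p = 0.0119, the smallest possible), as were 93% of all genes, and Foxp3 differed by -0.33 (exact p = 0.369).
Among 8, 10 and 12 weeks the Foxp3 ratio differed between ages (exact permutation test over 1680 assignments, p = 0.0179, and 0.0899 after adjustment over all genes), with a mean log2 ratio lower by 0.84 at 12 than at 8 weeks (difference -0.84). The p for Foxp3 lay between 0.00714 and 0.0321 when each mouse was left out in turn, and was 0.00714 with Cd4 as the denominator (difference -0.55). Il2ra (difference -1.25, exact p = 0.0143) and Ikzf2 (difference -2.05, exact p = 0.025) also differed, although both depended on mouse 1 at 8 weeks for size, with differences of -0.56 and -0.87 without it (exact p = 0.05 and 0.0464). With each mouse left out in turn, the exact p ran from 0.0143 to 0.136 for Il2ra and from 0.025 to 0.1 for Ikzf2. Both were above 0.05 without any 1 mouse of 10 or 12 weeks. Foxp3, Il2ra and Ikzf2, 3 of 7 members, stood beside 39.8% of all genes that were lower by the same test. Ctla4 (difference -0.35, exact p = 0.325), Il2rb (difference -0.35, exact p = 0.404), Tnfrsf18 (difference -0.90, exact p = 0.411) and Tnfrsf4 (difference -0.83, exact p = 0.0964) did not pass. Of the 14 other T cell genes, 0 were lower in either ratio test at an unadjusted exact p under 0.05 and 2 were higher in each, with a median log2 difference of 0.08 for the older against the younger ages and 0.00 for 12 against 8 weeks. The 2 that were higher were Cd8a and Cd8b1 in the former, by 0.58 and 0.66, and Cd3d and Cd8a in the latter, by 0.34 and 0.26.

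**Figure D3:**
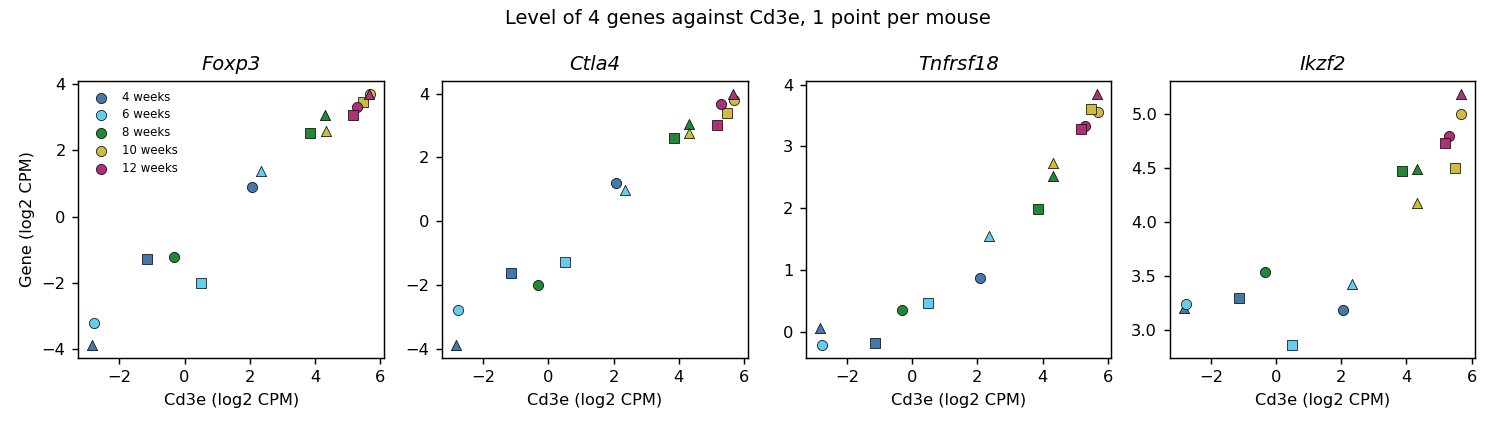
log2 CPM of Foxp3, Ctla4, Tnfrsf18 and Ikzf2 (y axes, a separate scale per gene) against log2 CPM of Cd3e (x axis) in each of 15 mice, with colour for age and the symbols for the mouse number as circle (1), square (2) and triangle (3). Foxp3 and Ctla4 rise with Cd3e over the whole range, whereas Ikzf2 lies between 7.21 and 11.6 CPM in all 4- and 6-week mice and mouse 1 of 8 weeks, over the whole range of Cd3e in these mice, and is higher in the other mice to the right.

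Likeness within an age was read for Foxp3 and Il2ra. After subtracting each gene's mean at its age from its log2 CPM, the genes whose deviations were most like those of Foxp3 over the 15 mice included the chemokine receptor gene Ccr9 (Pearson r = 0.995, Spearman rho = 0.986), Zap70, a kinase of T cell receptor signalling (0.992 and 0.986), AB124611 (0.991 and 0.982) and Pdcd1, encoding PD-1 (0.991 and 0.968). Without the 2 mice farthest from the median of the Foxp3 deviations, r was 0.986 to 0.990 for these 4. Ctla4 ranked 16 on this list (r = 0.980), Cd3e 99 (r = 0.962) and Ikzf2 2433 (r = 0.591). For Il2ra the 5 were Tbc1d10c, Epsti1, Aim2, Slamf6 and Clec10a (r from 0.991 to 0.988, and 0.988 to 0.983 without the 2 farthest mice), and Cd3e ranked 10 (r = 0.986). These values are descriptions: the deviations share their libraries and the same mice that stood apart.

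The rest of the pathway was read from lists written from general knowledge, with earlier results of these data known. Of all genes tested, 26.3% were called higher at 12 against 4 weeks. Of 17 genes of IL-2 receptor signalling and its targets, 14 were called higher and 0 lower at 12 against 4 weeks (edgeR), with a median log2 fold change of 1.56 against -0.05 over all genes. Il2rg, the third receptor chain, rose from 67 to 355 counts a mouse at 4 weeks to 2991 to 4184 at 12 weeks (log2 fold change 4.09, SE 0.847, adjusted p = 0.0018). Lta, encoding lymphotoxin alpha, had 0 to 7 counts at 4 weeks and 94 to 125 at 12 weeks. The feedback inhibitor Socs1 rose (log2 fold change 2.48, adjusted p = 0.0062), as did Stat5a, by 0.82 (SE 0.145, adjusted p = 0.0007). Stat5b, the other STAT5 gene, stood at 128 ± 7.92 CPM at 4 weeks and 124 ± 6.28 CPM at 12 weeks (log2 fold change -0.05, adjusted p = 0.694). Cish, a STAT5 target, was also not called (log2 fold change 1.03, SE 0.508, adjusted p = 0.103), and neither was the granzyme gene Gzmb (2.29, SE 1.13, adjusted p = 0.104), which is named because it completes the list of those not called.
Of 12 genes of related cytokines and receptors, most of which use the common gamma chain, 9 were tested. All 9, with Il2rg counted here again, were called higher at 12 against 4 weeks (median log2 fold change 4.09), beside 26.3% of all genes. Il9r had 0 to 1 counts at 4 weeks and 273 to 493 at 12 weeks, Il21, a cytokine of helper T cells, had 0 to 11 and 70 to 194, and its receptor gene Il21r had 6 to 97 and 1366 to 2009. Il4, Il9 and Tslp had too few counts for a test, as did Il2.

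Genes of costimulatory ligands and related receptors were higher too. Cd28 is counted here again from the T cell genes, and Icos is also in the list of other genes linked to regulatory T cells. All 6 tested of 7 were called higher at 12 against 4 weeks, beside 26.3% of all genes, and their median log2 fold change was 4.22. Cd28, the activating counterpart of Ctla4, had 0 to 65 counts a mouse at 4 weeks and 812 to 1291 at 12 weeks, and the ligand genes Cd80 (0 to 15, then 59 to 171) and Cd86 (17 to 98, then 624 to 1023) rose with it (log2 fold changes 4.09 and 3.93, adjusted p = 0.0043 and 0.0028). Tnfsf4, encoding the OX40 ligand, had 0 to 1 counts at 4 weeks and 32 to 51 at 12 weeks, and Icos, a relative of Cd28, 3 to 51 and 354 to 696. Tnfsf18, encoding the GITR ligand, had 0 to 2 counts at 4 weeks and 7 to 10 at 12 weeks and was not tested.
Of 26 other genes linked to regulatory T cells, 25 were tested. At 12 against 4 weeks 23 were called higher, beside 26.3% of all genes, and 1 lower (median log2 fold change 3.03). Izumo1r (folate receptor 4) had 0 to 23 counts at 4 weeks and 305 to 404 at 12 weeks, and Ccr6 had 3 to 13 and 350 to 449. Named after their values were seen, the gene called lower was Rtkn2 (log2 fold change -0.63, adjusted p = 0.0088) and the gene not called was Tnfrsf9 (0.14, adjusted p = 0.400), at 58.8 ± 1.94 and 12.9 ± 1.66 CPM at 4 weeks.

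**Figure D4:**
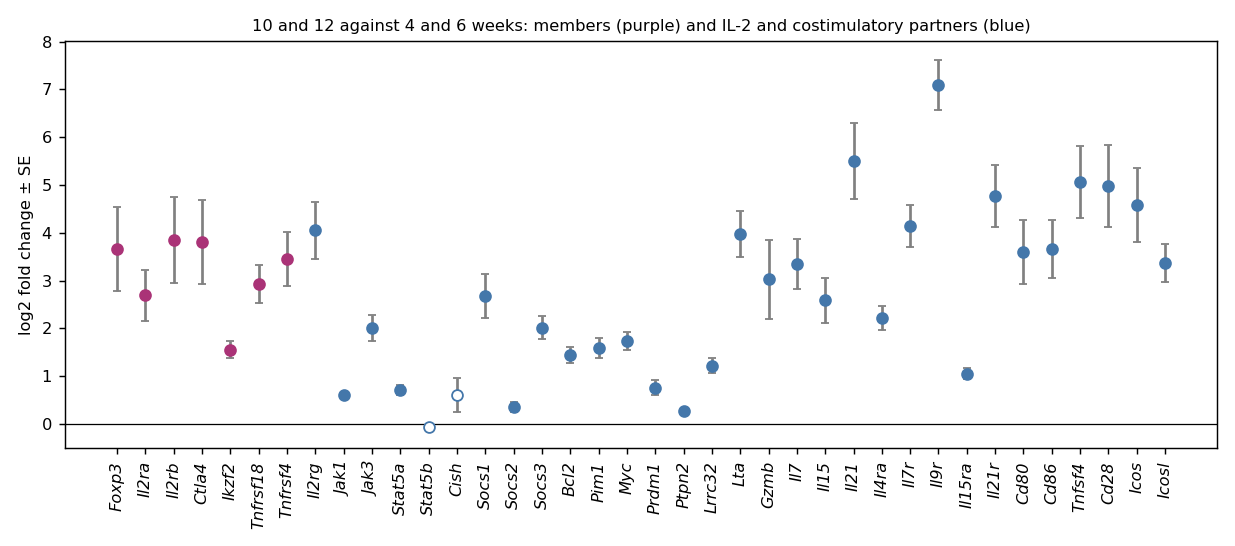
Fitted log2 fold change of 10 and 12 against 4 and 6 weeks (y axis) with its standard error (whiskers) for the 7 members tested (purple) and for every tested gene of the lists of IL-2 signalling, related cytokines and receptors, and costimulatory ligands and related receptors (blue). Filled points passed an adjusted p of 0.05 and open points did not. Il9r lies highest, at 7.09, followed by Il21, Tnfsf4, Cd28 and Il21r, Stat5b and Cish are the open points, and the values of Il9r and Tnfsf4, with 0 to 1 counts at 4 weeks, depend on the small count added in the fit.

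Genes of other leukocytes and of lymphoid stroma moved over the same ages, in a comparison of 12 against 4 weeks that called 26.3% of all genes higher. At 12 against 4 weeks all 6 B cell genes were called higher, with summed levels of 5.32 to 9.45 CPM at 4 weeks and 304 to 460 CPM at 12 weeks, and 3 of the 6 at 0 in mouse 3 at 4 weeks. All 7 myeloid genes tested were called higher (41.7 to 174 CPM, then 1047 to 1131 CPM), as were 7 of 7 lymph node stroma and high endothelial genes (3.65 to 12.7 CPM, then 366 to 585 CPM). Of 9 NK and innate lymphoid genes tested, 7 were called higher, with sums of 71.2 to 108 CPM and 96.3 to 121 CPM. Since Il2ra, Il2rb, Ctla4, Ikzf2, Tnfrsf18 and Tnfrsf4 can be expressed outside regulatory T cells, the part of these cells in the levels was not tested. Of 10 endocrine genes 8 were called lower (median log2 fold change -0.90). Of 7 endothelial genes 3 were called higher and 1 lower, Pecam1 the most (0.85) and Emcn the least (-0.28, adjusted p = 0.0495), and of 8 acinar genes none had an edgeR p, adjusted or not, under 0.05.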

How the data were processed

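Islet RNA of 15 NOD females was measured, with groups taken from the age in the sample labels. The members and the gene lists were chosen with earlier results of these data known. The deposited counts are whole reads per gene that the authors obtained with CLC Genomics Workbench 23 at default settings (trimming, alignment and counting, build mm10 per the labels), with no normalization. The deposited TPM values, scaled by the authors per transcript length and library, were used only to set levels of different genes side by side. Deposited RPKM and CPM columns were not used.

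Genes were kept by filterByExpr over the 5 ages, scaled by TMM and fitted with edgeR 4.0.16 (R 4.3.3, glmQLFit, 1 mean per age over all 15 mice). Contrasts were tested by glmQLFTest with Benjamini-Hochberg adjustment over the 16554 genes kept, and a gene was called at an adjusted p under 0.05. CPM values were computed from the counts with TMM library sizes, and log2 CPM with a prior count of 2. For the ratio to Cd3e, 0.5 was added to both counts, and mice were compared by exact two-sided permutation tests. The fits were checked on simulated counts in which 200 genes were changed. That check gave all genes the same spread and changed only genes above a smallest mean count. It thus does not cover genes with the low and widely spread counts of most members in young mice. Named genes were every member, up to 3 genes per list with the largest change at 12 against 4 weeks among those called, 12 genes of the pathway fixed by name, and the 5 genes most like Foxp3 and Il2ra. Some genes that fall under this rule are not reported here.

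Sequences and start sites were taken from RefSeq on GRCm38.p6. Alternatives were DESeq2 1.42.0, DESeq2 size factors or library totals in the edgeR fit, no filter, only the ages compared, the replicate number as a block, a ratio pseudocount of 2, other denominators, and each mouse left out in turn. Replicate numbers name different mice at different ages. The correlation of deviations between same-numbered mice ran from -0.504 to 0.509 and was over 0.1 for all 3 pairs in no comparison, so the numbers do not pair the mice. Mice of an age are separate samples in the labels, and differed by more than counting error.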

Additional observations from a re-analysis of the deposited data

How the results depend on the processing

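The direction of all 7 members and their calls for 10 and 12 against 4 and 6 weeks held under every alternative run, with each mouse left out in turn included (7 of 7 called throughout). At 12 against 4 weeks, 4 to 7 members were called when each mouse was left out, and for any difference among the 5 ages 4 to 7 of 7. With the replicate number as a block, that joint test called 4, and Il2rb at 12 against 4 weeks had an adjusted p of 0.0612. The block is a check on numbers that do not pair the mice, and it moved the count of genes called at 10 against 8 weeks from 2776 to 0. At 8 against 6 weeks, where no member was called, DESeq2 called 1, the fits without 1 mouse 0 to 1, and the fit without mouse 1 of both 4 and 8 weeks, an alternative chosen after seeing the data, 4. At 10 against 8 weeks DESeq2 called 1 and the fits without 1 mouse 0 to 1. Of all genes, DESeq2 called 2.69% higher at 8 against 6 weeks and 14.2% at 10 against 8 weeks. The fit without mouse 1 of both 4 and 8 weeks called 6.75% higher at 8 against 6 weeks. Ratio tests without 1 mouse found 4 to 5 members lower at the older against the younger ages and 1 to 3 among 8, 10 and 12 weeks. In the latter test only Foxp3 passed without any 1 mouse of 10 or 12 weeks, and the reason was not tested. With all mice, 96.3% and 39.8% of all genes were lower in these ratio tests. With a pseudocount of 2 the Foxp3 (-0.93, exact p = 0.0173) and Ctla4 (-0.92, exact p = 0.00866) ratios also passed at the older against the younger ages. With Cd4 as the denominator neither did (-0.11, exact p = 0.827, and -0.16, exact p = 0.712). With Cd3d, Cd3e and Cd3g summed as the denominator neither did (-0.67, exact p = 0.227, and -0.71, exact p = 0.212). Over the mice with at least 50 Cd3e counts Ctla4 differed by -0.44 (exact p = 0.131).

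Uncalled differences near 0 changed sign. At 6 against 4 weeks this was so for Foxp3 with the block (-0.0515), and, without the mice that stood apart, for Il2rb (1.18) and Ctla4 (2.60). At 12 against 10 weeks it was so for Foxp3 (-0.0745) and Il2ra (-0.0738) with the block, Il2ra without a filter (-0.00116) and Il2rb with DESeq2 size factors (0.0104), library totals (0.0280), only the ages compared (0.0075) and DESeq2 (0.0100). The Il2rb ratio at the older against the younger ages was 0.23 with Cd4 as the denominator. When each mouse was left out, the log2 difference at 6 against 4 weeks ran from -2.50 to 2.43 for Foxp3, -0.67 to 1.09 for Il2ra, -2.17 to 1.18 for Il2rb, -1.86 to 2.61 for Ctla4, -0.18 to 0.10 for Ikzf2, -0.15 to 0.88 for Tnfrsf18 and -0.36 to 1.49 for Tnfrsf4. At 12 against 10 weeks it ran from -0.21 to 0.30 for Foxp3, -0.23 to 0.23 for Il2ra, -0.27 to 0.26 for Il2rb, -0.00029 to 0.50 for Ctla4, -0.0703 to 0.32 for Tnfrsf18 and -0.36 to 0.0335 for Tnfrsf4, and the Il2rb ratio from -0.82 to 0.13. The cause of these changes was not tested.

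Over all genes, library totals in place of TMM moved the median log2 difference of 12 against 4 weeks from -0.05 to 0.20 and the genes called higher from 4357 of 8858 to 6556 of 8376. At 6 against 4 weeks 15 genes were called, 141 with only the ages compared and 245 by DESeq2. At 8 against 6 weeks none was, 558 by DESeq2 797 without mouse 1 at 8 weeks and 1232 without mouse 1 of both 4 and 8 weeks. At 10 against 8 weeks 2776 were, 0 with only the ages compared or without mouse 1 or mouse 2 of 8 or of 10 weeks, but 4154 by DESeq2, 3408 without mouse 3 at 8 weeks and 5612 without mouse 3 at 10 weeks. Depth limits Il2, and the ratio to Cd3e in the young mice with few Cd3e counts.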
